A study of Mus musculus with 15 samples.

Results

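The SR proteins and the hnRNPs are the 2 large families of RNA-binding proteins that steer the choice of exons in nuclear pre-mRNA. Their genes were taken as all protein-coding genes of the counts table whose symbol begins with Srsf or Hnrnp, with names that carry -ps left out, which gave 31 of the 55450 gene IDs, 11 SR genes and 20 hnRNP genes. SR proteins carry RNA-recognition motifs and a tail rich in arginine and serine, bind enhancer sequences in exons and recruit the spliceosome there. The hnRNPs coat nascent RNA, often oppose the use of nearby splice sites, and several also act in mRNA export, stability and translation. Many genes of both families limit their own output by including an exon with an early stop codon, a poison exon, which sends the mRNA to nonsense-mediated decay. The hepatocyte, the main cell of the liver, depends on these proteins for the splicing of its metabolic mRNAs.

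Levels were read in the liver of 15 female C57BL/6 mice, from 3 groups of 5, with 1 poly(A)-selected, strand-specific library per mouse. The ages given here are those at the start of the study, and the livers were taken at its end, when the mice were some months older. Vehicle mice of the Adult group were 6 months old at the start and were given 120 µL of corn oil each day by gavage. The Old mice were 22 months old and received the same vehicle, and the PDX mice were 22 months old and received protectin DX, a lipid mediator made from an omega-3 fatty acid, in corn oil at 30 ng per g of body weight. Gavage lasted 9 weeks by the treatment protocol and 8 weeks by the design text. The study had male mice too, whose livers were not analysed here, and no 6-month mice received protectin DX.

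The libraries held 22424383 to 36070835 counted read pairs in the Adult, 25480180 to 29069346 in the Old and 26113995 to 30139181 in the PDX mice. A pair of Old mice, O2 and O5, stood apart from the other libraries in the paper's principal component analysis. Their libraries had the lowest shares of pairs assigned to a gene in the paper's alignment summary, although the paper describes their alignment metrics as similar to the others. It also states that both mice appear to lie at the extreme of frailty. The 8 hepatocyte markers, all detected, summed to 133001 to 145218 CPM (counted pairs scaled to a TMM-adjusted library of 1000000 pairs) in the Adult mice, against 77922 in O2 and 53762 in O5. O1 departed the other way, with the highest sum of all mice, 202281 CPM, and the PDX mice ran from 110636 to 164608 CPM. O2 had the highest summed level of the Kupffer cell, B cell, T cell, erythroid and dividing-cell markers, with 238 CPM for the 10 dividing-cell markers against 36.8 to 42.2 CPM in the Adult mice. O5 had the highest sum of the 6 stellate cell and fibroblast markers, 836 CPM, against 344 to 373 CPM in the Adult mice. The 8 neutrophil markers summed to 16.2 to 176 CPM in the Old and 2.61 to 6.02 CPM in the Adult mice. The PDX mice had 37.3 to 181 CPM, with PDX mouse 2 the highest of all. Of the 7 tested, 6 were higher in Old than in Adult livers (edgeR, adjusted p under 0.05), against 4.71% of all genes. In bulk liver, fewer cells of a type and less RNA per cell cannot be told apart. No cell type of the 10 marker lists had a marker at 0 in every mouse, and the part of these markers, and of O2 and O5, in the results below was not tested, so results that lean on those mice are given with and without them.

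Poison exons were looked for in the GENCODE M21 annotation of GRCm38, because the deposited counts add productive and decaying transcripts of a gene together. An annotated transcript of the nonsense-mediated decay class was present for 19 of the 31 genes (61.3%), 9 of the 11 SR genes and 10 of the 20 hnRNP genes, against 27.8% of the 13354 tested protein-coding genes. A retained-intron transcript was annotated for 22 of the 31 (71.0%), against 57.9% of the tested coding genes. The 31 genes had a median of 7 annotated transcripts, against 5 for the tested coding genes. A gene with more transcripts has more chances to hold either class, and this was not adjusted for. Cassette exons that hold the stop codon of such a decay transcript numbered 8, in 7 of the genes. The starts of 4 of them, from 2 SR and 2 hnRNP genes whose values are described below, are shown because they mark which sequence a gene-level count cannot separate from the coding mRNA. They belong to Srsf3 (chr17:29039454-29039909, plus strand, 456 bases), Srsf7 (chr17:80204622-80205081, minus strand, 460 bases), Hnrnpl (chr7:28817335-28817404, plus strand, 70 bases) and Hnrnpll (chr17:80044940-80045022, minus strand, 83 bases). Each is written 5′ to 3′ in GRCm38 from the first base of the exon to its early stop codon, which is in capitals.
Srsf3: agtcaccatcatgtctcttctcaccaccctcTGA
Srsf7: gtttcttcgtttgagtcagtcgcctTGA
Hnrnpl: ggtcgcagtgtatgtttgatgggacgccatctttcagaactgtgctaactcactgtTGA
Hnrnpll: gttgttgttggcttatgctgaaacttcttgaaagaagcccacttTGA
The stop codon was TGA in these 4 exons and in 6 of the 8, and TAG in those of Srsf4 and Srsf9, which are not shown. It ended 34 bases into the Srsf3 exon and 28 bases into the Srsf7 exon, so that most of these long exons lay behind it.

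Both families were well expressed, and within each the levels differed widely between genes. On the scale of CPM per kb of exon, averaged over the 15 mice, the highest SR genes were Srsf5 at 65.1, Srsf2 at 48.8 and Srsf6 at 24.3. The highest hnRNP genes on that scale were Hnrnpab at 71.4, Hnrnpa2b1 at 64.8 and Hnrnpa0 at 31.8. Srsf2 acts in splicing and in the release of paused RNA polymerase, Srsf5 and Srsf6 are enhancer-binding SR proteins, and Hnrnpa2b1 binds splice sites and sorts RNA for transport. Neighbours in this order were often close, and the ranges over the 15 mice overlapped for Hnrnpab (48.3 to 134), Srsf5 (45.8 to 83.8), Hnrnpa2b1 (43.4 to 76.4) and Srsf2 (42.7 to 56.1). The lowest genes with enough counts were Hnrnpr at 1.41, Hnrnpll at 2.49 and Srsf10 at 3.43 CPM per kb, although the annotated exons of Hnrnpr span 22199 bases, which lowers a value per length. Srsf12 had 0 to 3 counts per mouse, 16 in all, and was the 1 gene of the 31 that did not pass the filter on low counts, so 30 genes were tested. Summed over the 11 SR genes, the level was 869.9 ± 34.4 CPM in Adult, 876 ± 66.2 in Old and 841.5 ± 46.1 in PDX livers (SD, n = 5). Summed over the 20 hnRNP genes it was 2047 ± 85.9 CPM in Adult, 2246 ± 294 in Old and 2035 ± 59.3 in PDX livers. The group means of both sums lay within 1 SD of the Old group of each other, and the highest hnRNP sum, 2753 CPM, was that of O5. The Old sums were 838 ± 45.9 CPM for the SR and 2096 ± 92.4 CPM for the hnRNP genes when O2 and O5 were left out (SD, n = 3).

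**Figure D1:**
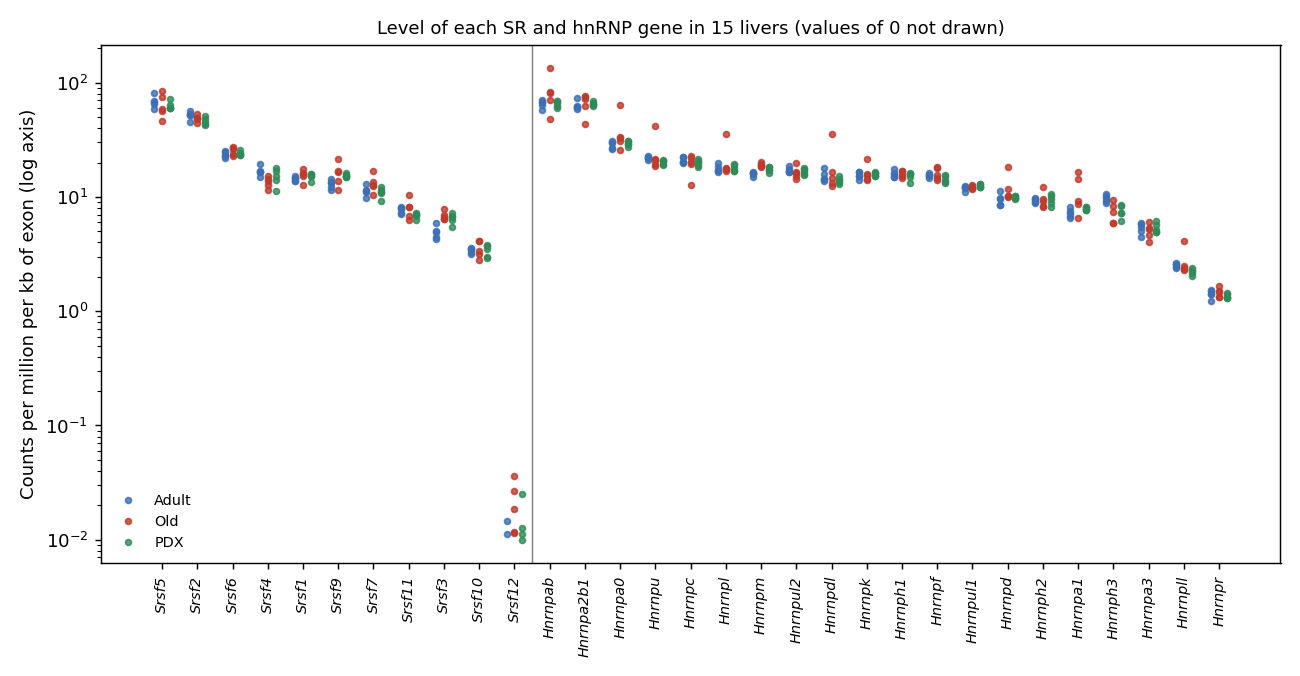
Level of each of the 31 genes in each mouse, in CPM per kb of exon on a log axis, with SR genes on the left of the line and hnRNP genes on the right, and 1 point per mouse (blue Adult, red Old, green PDX). Hnrnpab, Srsf5 and Hnrnpa2b1 lie near the top, Srsf12 lies far below the rest with 0 to 3 counts per mouse, and single red points above the other mice of several hnRNP genes are O5.

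The first comparison, Old against Adult, asked what aging did to these genes. Srsf3 was the 1 gene of the 30 tested that rose at an adjusted p under 0.05 (edgeR quasi-likelihood test, adjusted over 15808 genes), against 4.71% of all genes, and 0 fell, with 6.78% of all genes called in either direction. At an unadjusted p under 0.05 there were 7 of 30, against 27.7% of all genes, and of these 5 were higher and 2 lower, against 17.9% and 9.81% of all genes. When O2 and O5 were left out the 7 became 2, Srsf3 and Hnrnpm, against 24.6% of all genes, and leaving out 1 mouse at a time gave 4 to 9. The changes were small: the median log2 fold change of the 30 was 0.07, equal to that of all genes at this rounding, and 1 of 30 moved by more than 0.5, against 32.7% of all genes. More of the 30 had a positive than a negative fold change, 22 against 8, where 56.8% of all genes were positive. Without O2 and O5 the split was 14 against 16 and the median -0.02, where 51.3% of all genes were positive with a median of 0.01, so the excess of positive values rested on those mice.

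Srsf3 (ENSMUSG00000071172, chr17:29032628-29043373 on the plus strand of GRCm38) encodes the smallest SR protein, which acts in splicing, in the choice of polyadenylation sites and in mRNA export, and is needed for normal hepatocyte maturation. It stood at 34.1, 46.9, 35.4, 40.0 and 38.6 CPM in Adult mice 1 to 5 and at 55.3, 61.4, 50.5, 50.7 and 53.1 CPM in Old mice 1 to 5. The PDX mice 1 to 5 had 53.9, 57.2, 43.1, 50.0 and 53.1 CPM. Every Old mouse was above every Adult mouse, and every PDX mouse was above the Adult mean, with the lowest PDX mouse below the highest Adult mouse. The rise from Adult to Old was 1.39-fold, a log2 fold change of 0.48 (SE 0.11, edgeR adjusted p = 0.0280). Without O2 and O5 the log2 fold change was 0.43 (edgeR adjusted p = 0.0347). The call was lost without Adult mouse 1, 3, 4 or 5, where the adjusted p lay between 0.0664 and 0.0744 and the log2 fold change between 0.43 and 0.48.

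The promoter window of Srsf3 is shown because it belongs to the gene that rose. The 300 bases span the RefSeq start of the gene (chr17:29032410-29032709, GRCm38.p6, plus strand, 5′ to 3′), with capitals on an inverted CCAAT box (ATTGG) at position -58 and a TATA box (TATAAA) at position -18 from the start.
Srsf3: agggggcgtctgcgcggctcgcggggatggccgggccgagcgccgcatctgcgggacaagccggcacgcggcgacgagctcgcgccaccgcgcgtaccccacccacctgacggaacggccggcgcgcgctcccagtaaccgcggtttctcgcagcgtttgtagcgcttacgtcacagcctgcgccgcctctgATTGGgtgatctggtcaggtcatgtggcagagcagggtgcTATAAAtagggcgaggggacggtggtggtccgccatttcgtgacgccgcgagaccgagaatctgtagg
The motifs searched, each on both strands, were the GC box (letters GGGCGG), the CCAAT box, the TATA box (letters TATAAA) and the E-box (letters CACGTG), which do not overlap one another here, and the Srsf3 window held the second and the third. Positions count from the RefSeq start. The GENCODE span of Srsf3 begins upstream of that, at 29032628, so its TATAAA match lies inside the span and not in front of it.

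Among the other SR genes, Srsf9 and Srsf4 had an unadjusted p under 0.05 between Old and Adult. Srsf9, an SR protein that often represses exons, had 28.1, 35.5, 18.8, 27.5 and 22.8 CPM in Old mice 1 to 5 against 19.1 to 23.9 CPM in the Adult mice (log2 fold change 0.30, SE 0.14, edgeR adjusted p = 0.175, and 0.21 without O2 and O5). Its Old values were the most scattered, with O2 the highest and mouse 3 the lowest of all 15. Srsf4 had 41.0 to 54.5 CPM in the Old mice, median 49.4, and 53.6 to 68.6 CPM in the Adult mice, median 59.2 (log2 fold change -0.31, SE 0.13, adjusted p = 0.136). All Old mice were below the Adult mean of Srsf4, and the highest Old mouse was above the lowest Adult mouse.

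Srsf7, the closest relative of Srsf3 in binding and in export, had 34.8, 45.7, 41.1, 39.3 and 39.9 CPM in Adult mice 1 to 5. The Old mice 1 to 5 had 44.7, 60.0, 36.8, 44.1 and 48.3 CPM, and the PDX mice 1 to 5 had 39.2, 43.0, 32.6, 38.4 and 40.7 CPM. O2 was the highest of all mice and the 3 groups overlapped. The log2 fold change of Srsf7 from Adult to Old was 0.22 (SE 0.13, edgeR adjusted p = 0.279), and 0.07 without O2 and O5.

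The 3 SR genes with the highest level per length had small fold changes. Srsf5 had 269, 278, 233, 323 and 259 CPM in Adult mice 1 to 5, then 183, 223, 296, 235 and 334 CPM in the Old and 240.1, 285, 238, 255 and 240.3 CPM in the PDX mice. O5 was the highest and O1 the lowest of all 15 mice for Srsf5, so that the Old group spanned the others (log2 fold change Old against Adult -0.10, SE 0.16). Srsf2 had 154, 166, 159, 133 and 155 CPM in the Adult, 143, 144, 131, 156 and 145 CPM in the Old and 142, 132, 126, 129 and 151 CPM in the PDX mice 1 to 5. All PDX mice were below the Adult mean of Srsf2, with overlap of all groups. Srsf6 had 120.4, 119, 113, 109 and 105 CPM in the Adult, 115, 125, 109, 129 and 130.3 CPM in the Old and 118, 123, 111, 115 and 112 CPM in the PDX mice 1 to 5. Its groups also overlapped (log2 fold change Old against Adult 0.10, SE 0.09). Srsf1, the founding member of the family, Srsf10, which represses splicing when dephosphorylated, and Srsf11 had log2 fold changes of 0.11, 0.05 and 0.05.

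**Figure D2:**
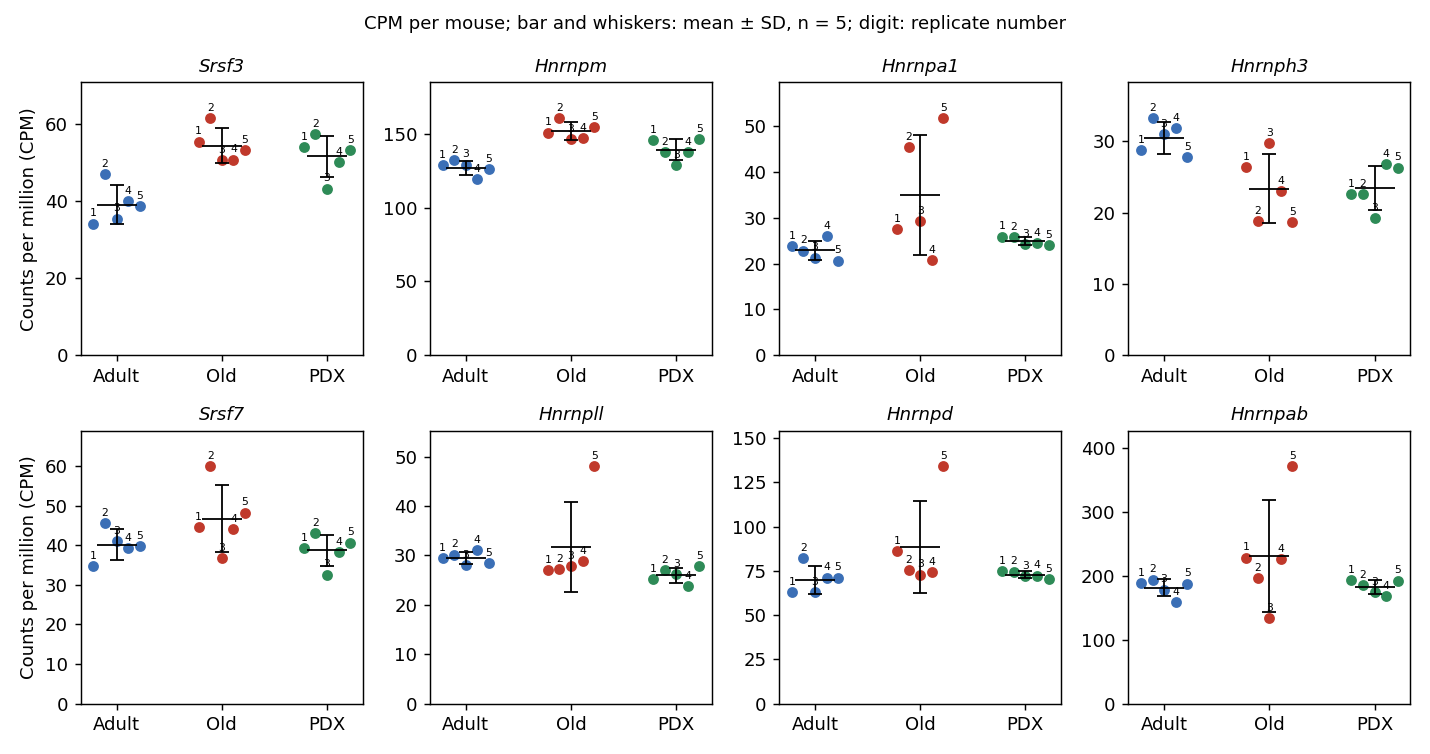
CPM of 8 genes in each mouse (points, numbered by replicate) with the mean ± SD of each group of 5 as a bar and whiskers, on axes that start at 0. The Old mice lie above all Adult mice for Srsf3 and Hnrnpm, while for Hnrnpa1, Hnrnpll, Hnrnpd and Hnrnpab the Old mean is drawn up by O5, and for Hnrnpa1 also by O2.

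Hnrnpm, which binds GU-rich RNA and restrains exon use in innate immune transcripts, was the other gene whose Old and Adult mice did not overlap, so that 2 of 30 did not overlap, against 8.13% of all genes. The Adult mice 1 to 5 had 128, 132, 129, 119 and 126 CPM and the Old mice 1 to 5 had 151, 161, 146, 147 and 155 CPM. The PDX mice 1 to 5 had 146, 138, 129, 137 and 146 CPM and lay below every Old mouse, reaching down into the Adult range. Its log2 fold change from Adult to Old was 0.26 (SE 0.09) with an edgeR adjusted p of 0.0821, and 0.23 with an adjusted p of 0.0790 without O2 and O5. The Wald test of DESeq2, which called 2642 genes where edgeR called 1072, gave Hnrnpm an adjusted p of 0.000665. Hnrnpm (chr17:33646233-33686860, minus strand) shares up to 1149 exon bases on its own strand with March2, a gene of 18604 counts. The authors kept pairs that matched more than a single gene apart as ambiguous, so pairs of that stretch may be missing from the Hnrnpm count and its level is uncertain.

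The promoter windows of Hnrnpm and of Hnrnpa1, the hnRNP genes with the smallest p-values in this comparison, are set side by side. Both run 5′ to 3′ over 300 bases of GRCm38.p6 by RefSeq, Hnrnpm at chr17:33685409-33685708 on the minus strand and Hnrnpa1 at chr15:103240147-103240446 on the plus strand, with the letters of the 4 motifs in capitals.
Hnrnpm: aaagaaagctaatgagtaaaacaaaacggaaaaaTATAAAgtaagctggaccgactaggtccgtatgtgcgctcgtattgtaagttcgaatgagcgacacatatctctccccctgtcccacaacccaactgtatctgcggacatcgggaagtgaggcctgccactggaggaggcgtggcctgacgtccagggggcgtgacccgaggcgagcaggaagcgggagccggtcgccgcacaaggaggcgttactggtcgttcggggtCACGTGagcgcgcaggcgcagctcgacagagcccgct
Hnrnpa1: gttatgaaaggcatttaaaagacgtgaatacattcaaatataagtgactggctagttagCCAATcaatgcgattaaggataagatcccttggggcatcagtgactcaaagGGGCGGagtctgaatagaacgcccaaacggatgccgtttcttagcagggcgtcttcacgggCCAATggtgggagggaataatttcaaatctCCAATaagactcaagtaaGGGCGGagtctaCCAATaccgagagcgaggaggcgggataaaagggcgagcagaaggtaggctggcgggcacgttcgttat
The Hnrnpm window held TATAAA at position -216 and CACGTG at position 14 from the start. That start is the RefSeq one, and the window lies inside the GENCODE span of the gene, whose 5′ end is at 33686860, so it is not upstream of that end. The Hnrnpa1 window held CCAAT at positions -191, -79, -49 and -19 and GGGCGG at positions -140 and -31.

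Hnrnpa1 (chr15:103240432-103246692, plus strand) encodes a repressor of exon inclusion that competes with SR proteins, and had the largest positive log2 fold change of the 30 from Adult to Old, 0.61 (SE 0.20, edgeR adjusted p = 0.0678). The Adult mice 1 to 5 had 23.7, 22.8, 21.3, 26.0 and 20.7 CPM and the PDX mice 1 to 5 had 25.9, 25.7, 24.2, 24.5 and 24.0 CPM. The Old mice 1 to 5 had 27.4, 45.5, 29.3, 20.7 and 51.8 CPM. O2 and O5 were far above the rest, O4 was at the low end of the Adult range, and the log2 fold change without O2 and O5 was 0.18 (adjusted p = 0.328). Processed pseudogenes of Hnrnpa1 lie elsewhere in the genome and the authors counted uniquely aligned pairs, so the level of this gene is uncertain.

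Hnrnph3, which binds G-runs beside splice sites, was the hnRNP gene with the lowest Old to Adult ratio. It had 28.8, 33.3, 31.0, 31.8 and 27.7 CPM in Adult mice 1 to 5 and 26.4, 18.8, 29.8, 23.0 and 18.6 CPM in Old mice 1 to 5. The PDX mice 1 to 5 had 22.6, 22.6, 19.2, 26.8 and 26.3 CPM, all below the lowest Adult mouse. The log2 fold change of Hnrnph3 from Adult to Old was -0.39 (SE 0.14, edgeR adjusted p = 0.0924), and -0.20 with an adjusted p of 0.332 without O2 and O5. Its relatives Hnrnph1, Hnrnph2 and Hnrnpf had log2 fold changes of -0.01, 0.03 and 0.06, with overlap of the groups.

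Several hnRNP genes were higher in O5 than in any other mouse. Hnrnpd, known as AUF1, a regulator of the decay of AU-rich mRNAs, had 62.8, 82.1, 62.8, 71.2 and 71.2 CPM in the Adult and 75.0, 74.5, 72.0, 72.3 and 70.4 CPM in the PDX mice 1 to 5. In the Old mice 1 to 5 it had 86.0, 75.5, 72.9, 74.3 and 134 CPM. Its log2 fold change from Adult to Old was 0.34 (SE 0.16, edgeR adjusted p = 0.174), and 0.16 without O2 and O5. Hnrnpab had 190, 194, 179, 159 and 188 CPM in the Adult, 229, 197, 134, 226 and 372 CPM in the Old and 193, 185, 174, 168 and 193 CPM in the PDX mice 1 to 5. The Old group held both the highest and the lowest mouse for Hnrnpab (log2 fold change 0.35, SE 0.20, adjusted p = 0.271). Its value was 0.12 without O2 and O5, and leaving out 1 mouse at a time gave 0.11 to 0.49. Hnrnpa0 had 78.9, 81.3, 81.9, 71.0 and 71.3 CPM in the Adult, 88.9, 82.6, 68.3, 87.3 and 172 CPM in the Old and 78.5, 78.2, 82.4, 73.2 and 81.9 CPM in the PDX mice 1 to 5. Apart from O5 the Old mice of Hnrnpa0 ranged from 68.3 to 88.9 CPM, close to the other groups, and its log2 fold change of 0.38 from Adult to Old was 0.10 without O2 and O5.

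Hnrnpll, a regulator of exon skipping in lymphocytes, had 29.5, 30.2, 28.0, 31.0 and 28.4 CPM in Adult mice 1 to 5, 27.0, 27.2, 27.9, 28.8 and 48.0 CPM in Old mice 1 to 5, and 25.2, 27.0, 26.1, 23.8 and 27.8 CPM in PDX mice 1 to 5. O5 was above every other mouse and the other Old mice were between 27.0 and 28.8 CPM. The log2 fold change of Hnrnpll from Adult to Old was 0.11 with all mice and -0.06 without O2 and O5. Hnrnpu, a scaffold protein of the nucleus, had 488 CPM in O5 and 215 to 251 CPM in the other Old mice. Hnrnpl, the paralog of Hnrnpll, had 213 CPM in O5 and 101 to 106 CPM in the other Old mice, and Hnrnpdl had 169 CPM in O5 and 59.6 to 78.9 CPM in the others. The log2 fold changes of Hnrnpu, Hnrnpl and Hnrnpdl from Adult to Old, 0.15, 0.25 and 0.27, were -0.14, -0.02 and -0.17 without O2 and O5.

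O5 was not high throughout. Hnrnpa2b1 had 389, 485, 408, 400.0 and 399 CPM in the Adult, 492, 470, 409, 503 and 286 CPM in the Old and 438, 420, 413, 431 and 453 CPM in the PDX mice 1 to 5, with O5 the lowest of all. O5 was also the lowest of all mice for Hnrnpc, which guards exons against the use of cryptic splice sites, at 54.8 CPM against 78.6 to 98.4 CPM in the other 14 mice. In all, O5 was the highest of the 15 mice for 13 of the 30 genes and the lowest for 6, against 25.9% and 28.4% of all genes. O2 was the highest for 9 of the 30, against 20.1% of all genes, and the lowest for 0, against 12.4% of all genes. One or the other was the highest for 22 of the 30, against 46.0% of all genes. The median SD of the log2 level over the 30 genes was 0.10 in Adult, 0.25 in Old and 0.09 in PDX mice, against 0.20, 0.53 and 0.23 over all genes. The Old SD exceeded the Adult SD for 25 of the 30, against 90.4% of all genes. The wider scatter of the Old group was thus seen in these genes and over all genes alike.

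**Figure D3:**
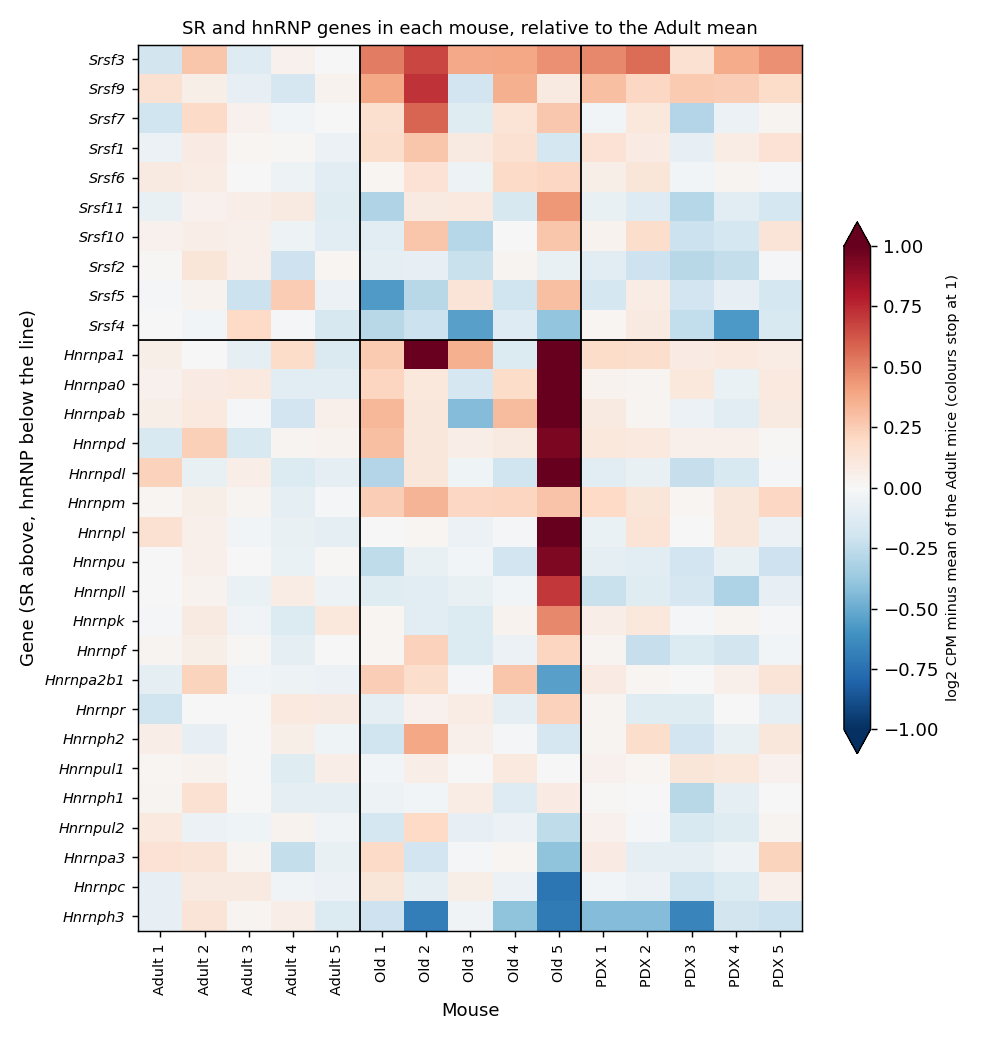
Log2 CPM of the 30 tested genes (rows, SR above and hnRNP below the line) in the 15 mice (columns), minus the mean of the Adult mice, with colours that stop at 1. The Srsf3 row is red in all Old and PDX mice, the Hnrnph3 row is blue in most of them, and the strongest colours of the hnRNP rows sit in the column of O5.

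The comparison of PDX with Old asked whether treatment moved these genes in aged mice. None of the 30 passed an adjusted p of 0.05 with edgeR, and the same held for all 15808 genes, so the background was 0. At an unadjusted p under 0.05 there was 1 of 30, Hnrnpa1, against 5.28% of all genes, and DESeq2 and limma called none of the 30 either. The count at an unadjusted p was 0 without O2 and O5 and 0 to 6 without 1 mouse at a time. The fold change was negative for 24 of the 30, with a median of -0.07 that equalled the median of all genes, -0.07, of which 40.1% were positive. Without O2 and O5 it was negative for 19 of the 30, with a median of -0.03, where all genes had a median of -0.01 and 48.3% were positive. This comparison shares the Old mice with the first, and a high O2 or O5 enters both with opposite sign.

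Hnrnpa1 had the smallest p of the 30 between PDX and Old, with a log2 fold change of -0.49 (SE 0.20, edgeR unadjusted p = 0.0243, adjusted p = 0.793) that was -0.05 without O2 and O5. Srsf7 followed with -0.27 (SE 0.13, unadjusted p = 0.0523), Hnrnpll with -0.29 (SE 0.15, unadjusted p = 0.0635) and Hnrnpd with -0.28 (SE 0.16, unadjusted p = 0.0925). Without O2 and O5 these were -0.10, -0.10 and -0.09. For Hnrnpm every PDX mouse was below every Old mouse, the 1 gene of 30 without overlap, against 0.342% of all genes, at a log2 fold change of -0.13 (SE 0.09, edgeR adjusted p = 0.793). Srsf3 differed little between PDX and Old, with a log2 fold change of -0.07 (SE 0.11, adjusted p = 0.872), and Hnrnph3 likewise at 0.01 (SE 0.14, adjusted p = 0.989).

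PDX against Adult compared treated aged mice with young adults, so age and treatment cannot be told apart in it. None of the 30 genes passed an adjusted p of 0.05 with edgeR, against 2.66% of all genes, and 2 of 30 had an unadjusted p under 0.05, against 20.6% of all genes. DESeq2 called 1 of the 30, Srsf3, with an adjusted p of 0.0134. The log2 fold change of Srsf3 from Adult to PDX was 0.40 (SE 0.11, edgeR adjusted p = 0.0705), and 0.42 with an adjusted p of 0.00731 without O2 and O5. That of Hnrnph3 was -0.38 (SE 0.14, adjusted p = 0.146), and -0.36 with an adjusted p of 0.0212 without O2 and O5. In that fit without O2 and O5 these 2 of the 30 genes were called, against 24.6% of all genes. The PDX and Adult mice did not overlap for 4 of the 30 genes, against 19.9% of all genes. Srsf9 was above, at 24.5 to 26.5 CPM against 19.1 to 23.9 CPM, and Hnrnph3, Hnrnpll and Hnrnpu were below. The fold changes of the 30 were evenly split, 15 positive and 15 negative, around a median of 0.00.

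**Figure D4:**
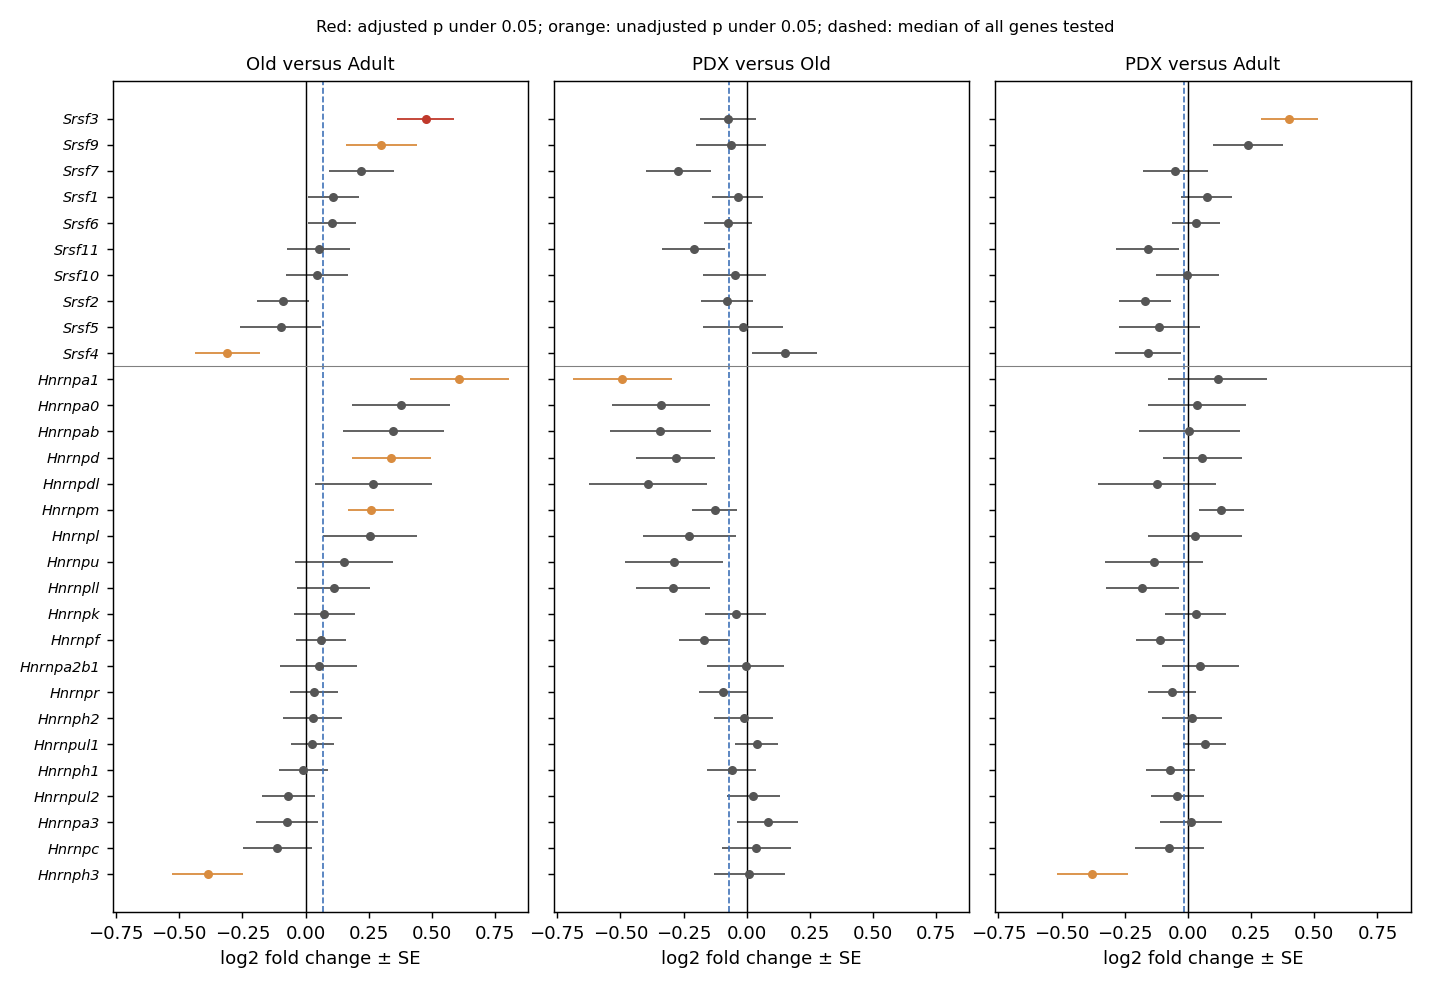
Log2 fold change ± SE of the 30 tested genes in the 3 comparisons, with SR genes above and hnRNP genes below the line, red points at an adjusted p under 0.05 and orange points at an unadjusted p under 0.05. Srsf3 at 0.48 is the single red point, between Old and Adult, and the dashed line, the median of all genes, runs close to the middle of the points in every panel.

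Promoter windows were matched for 29 of the 31 genes. The GC box GGGCGG was found in 24 of the 29 (82.8%), against 49.2% of 17491 coding genes, and CCAAT in 17 of the 29 (58.6%), against 42.3%. TATAAA was found in 4 of the 29, Srsf2, Srsf3, Hnrnpab and Hnrnpm, which is 13.8% against 14.8% of coding genes. The E-box CACGTG was found in 5 of the 29, Hnrnpa3, Hnrnpd, Hnrnpf, Hnrnph2 and Hnrnpm, 17.2% against 8.91%. A match is the presence of these letters and not a binding site. The coding genes of this background were not limited to those expressed in liver, so the shares were not compared among genes of like expression.

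The partners of these proteins were read in 6 lists of 145 genes, of which 142 were tested. Between Old and Adult, 3 of the 142 rose and 1 fell, which is 2.82% called and below the 6.78% of all genes. Leaving out 1 mouse at a time gave 0 to 9 called, with 0 without Adult mouse 1, 3, 4 or 5. Without O2 and O5 there were 3 of the 142 that rose and 3 that fell, where 1158 of 16275 genes in all were called. The genes that rose were all of the 55 core spliceosome genes, namely Lsm8, a subunit of the ring on U6 RNA, at 9.38 ± 4.13 against 4.96 ± 0.302 CPM (log2 fold change 0.92, SE 0.22, edgeR adjusted p = 0.0297), Snrnp40 of the U5 particle (0.49, SE 0.12, adjusted p = 0.0299) and Prpf31 of the tri-snRNP (0.47, SE 0.11, adjusted p = 0.0288). The gene that fell, from the list of other splicing regulators, was Rbm47, an epithelial RNA-binding protein that also assists the editing of apolipoprotein B mRNA, at 35.7 ± 9.42 CPM in Old against 58.6 ± 5.41 CPM in Adult mice (log2 fold change -0.71, SE 0.16, adjusted p = 0.0231). The log2 fold changes of Lsm8, Snrnp40, Prpf31 and Rbm47 without O2 and O5 were 0.52, 0.44, 0.36 and -0.55 (edgeR adjusted p of 0.0360, 0.0471, 0.0467 and 0.0347), while each of the 4 lost its call without some single mouse, where the highest adjusted p was 0.0761, 0.0812, 0.0729 and 0.0612.

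Of the 10 SR protein kinases and import factors, such as Srpk1, Clk1 and Tnpo3, which phosphorylate SR proteins or carry them into the nucleus, 0 passed the threshold and 3 had an unadjusted p under 0.05, against 27.7% of all genes. None of the 25 SR-related proteins, 19 hnRNP-type proteins with other names and 15 genes of nonsense-mediated decay and the exon junction passed with edgeR either, with 1 unadjusted p under 0.05 in each list. The medians of the 6 lists between Old and Adult lay between -0.06 and 0.11, on both sides of the 0.07 of all genes, and without O2 and O5 between -0.15 and 0.06. Between PDX and Old, 0 of the 142 passed and 8 had an unadjusted p under 0.05, against 5.28% of all genes, and 3 did without O2 and O5. The fold change was positive for 27 of the 142, against 40.1% of all genes, with medians of -0.20 for the kinases and import factors, -0.19 for the hnRNP-type and -0.18 for the SR-related proteins, against -0.07 for all genes. It was positive for 66 of the 142 without O2 and O5, against 48.3% of all genes, and these medians were -0.05, -0.02 and 0.01. The smallest p there was that of Rnps1, a protein deposited with the exon junction, at 9.78 ± 0.298 CPM in PDX against 14.4 ± 5.83 CPM in Old mice (log2 fold change -0.55, SE 0.20, edgeR unadjusted p = 0.0133, adjusted p = 0.793). Its log2 fold change was -0.20 without O2 and O5 and ran from -0.65 to -0.27 without 1 mouse at a time. Between PDX and Adult, 0 of the 142 passed and 17 had an unadjusted p under 0.05, against 20.6% of all genes, while without O2 and O5 there were 4 that rose and 18 that fell, against 24.6% of all genes called, and 0 to 9 were called without 1 mouse at a time. The kinases and import factors had a median of -0.20 and the SR-related proteins of -0.13, against -0.01 for all genes.

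**Figure D5:**
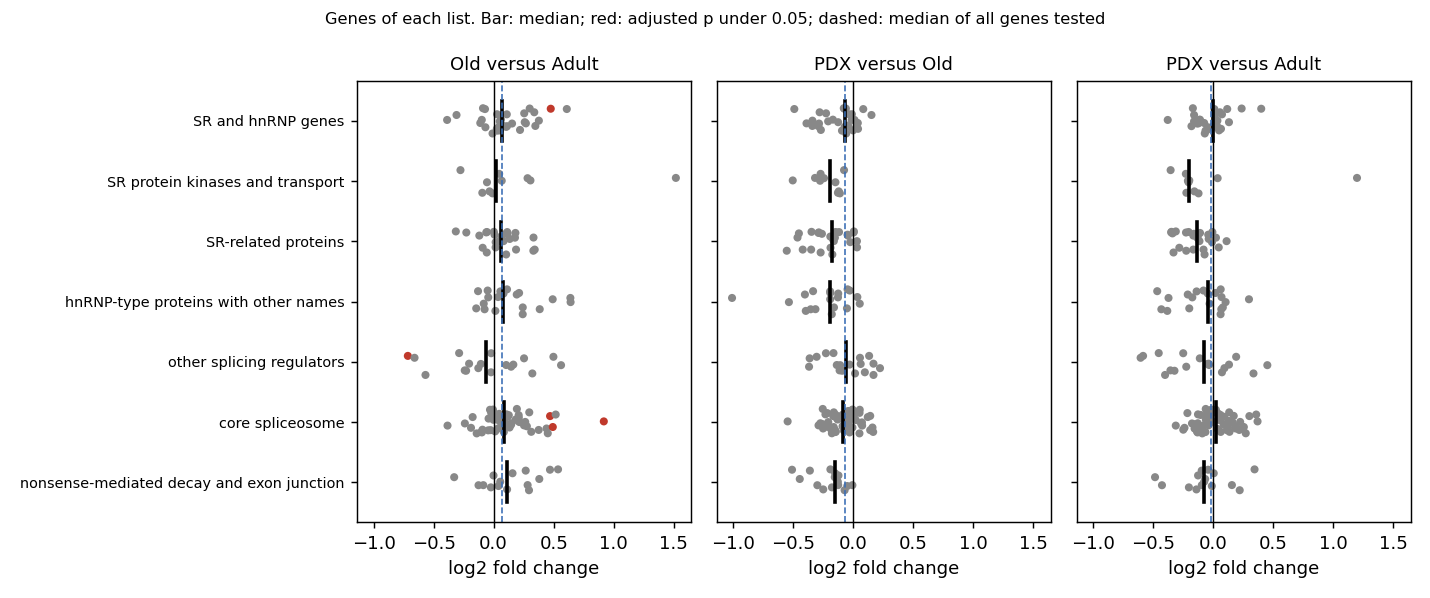
Log2 fold changes of the 30 SR and hnRNP genes and of 6 lists of their partners in the 3 comparisons, with 1 point per gene, red at an adjusted p under 0.05, a bar at the median of each list and a dashed line at the median of all genes tested. Red points appear only between Old and Adult, 1 among the SR and hnRNP genes, 1 among other splicing regulators and 3 in the core spliceosome, and in both PDX panels the bar farthest below the dashed line is that of the kinases and import factors, at -0.20.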

How the data were processed

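Liver mRNA of 15 mice was sequenced. The authors aligned paired reads with STAR (version 2.6.0c) to mm10 and deposited raw counts of uniquely aligned proper pairs per Ensembl gene, made on the strand of each gene with featureCounts (Subread 1.6.2). A second table deposited by the authors holds log2-like values that DESeq2 (version 1.23.10) made from the counts by variance stabilization, and it was used here in an alternative. Symbols came from GENCODE M21 for 55190 of 55450 IDs, and 0 columns lacked a sample.

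Counts were tested with edgeR (version 4.0.16, R 4.3.3): filterByExpr by group (minimum count 10, minimum total 15), TMM, 1 coefficient per group over all 15 mice, quasi-likelihood F test, Benjamini-Hochberg over 15808 genes, threshold 0.05. CPM used TMM-scaled library sizes. The steps were tested on simulated data. Alternatives were DESeq2 (version 1.42.0), limma (version 3.58.1), other scaling and filters, mice left out and a replicate block. The members and the lists were chosen with earlier results of these data known. Named members were the 4 smallest p-values in Old against Adult and in PDX against Old, those called, and the 3 SR and 3 hnRNP genes highest per length. Srsf4, Srsf9, Hnrnpu, Hnrnpl, Hnrnpdl and Hnrnpc were named after their values were seen. Mice were euthanized in batches that the sources used here do not give per mouse, so no within-batch value was computed.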

Additional observations from a re-analysis of the deposited data

Results flagged for a closer look

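Of 90 groups of 5 mice (30 genes in 3 groups), 8 held a mouse far from the other 4 by Dixon's 95% criterion, where chance gives about 1 in 20 groups. In 7 of the 8 the mouse was O5 and it was the highest of the Old group. Its levels were 172 CPM for Hnrnpa0 (68.3 to 88.9 CPM in the other Old mice), 134 CPM for Hnrnpd (72.9 to 86.0), 169 CPM for Hnrnpdl (59.6 to 78.9) and 139 CPM for Hnrnpk, a poly(C)-binding protein (91.0 to 103). They were 213 CPM for Hnrnpl (101 to 106), 48.0 CPM for Hnrnpll (27.0 to 28.8) and 488 CPM for Hnrnpu (215 to 251). These genes share 1 mouse and are not separate observations, and the part of the low hepatocyte marker level of O5 in them was not tested. The other was Hnrnpa2b1 in Adult mouse 2, at 485 CPM against 389 to 408 CPM in the other Adult mice.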

How the results depend on the processing

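Between Old and Adult, 1 SR or hnRNP gene and 1072 genes in all were called. There were 0 and 665 with no low-count filter, 3 (Srsf3, Hnrnpa1 and Hnrnpm) and 2642 with DESeq2, and 0 and 105 when only the 2 groups compared were fitted. Over all genes, limma on the deposited log2 values called 603. Leaving out each mouse gave 0 to 4 of the 30 genes and 156 to 2178 of all genes. Srsf3 had an adjusted p of 0.0575 with no low-count filter and 0.0940 in the fit of 2 groups, and was called with both other scalings, DESeq2, limma and without O2 and O5. Between PDX and Old, DESeq2 called 1 gene in all where edgeR called 0, and 0 to 0 were called without each mouse. Between PDX and Adult, 0 of the 30 and 420 in all were called, against 1 with upper-quartile factors, 1 and 1401 with DESeq2, 3 and 4529 in the fit of 2 groups, 2 and 4004 without O2 and O5, and 0 to 1 and 166 to 1766 without each mouse.

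Equal replicate numbers do not pair the mice, which are different animals: same-numbered Old and Adult mice had a mean correlation of their deviations of -0.168. A replicate block called 237 genes between Old and Adult, Srsf3 among them (edgeR adjusted p = 0.0466), and turned the PDX to Old log2 fold change of Hnrnpa2b1 from -0.003 to 0.016.

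Without O2 and O5 the sign changed for 12 of the 30 genes between Old and Adult and for 11 between PDX and Old, the largest being Hnrnpdl in both, from 0.27 to -0.17 and from -0.39 to 0.07. Between PDX and Old, Hnrnpa2b1 was 0.020 with upper-quartile factors, 0.0036 with no low-count filter and 0.019 with limma, and Srsf5 was 0.0086 with upper-quartile factors, 0.0082 with limma and 0.088 without O2 and O5. Hnrnph3 was -0.0072 in the fit of 2 groups and -0.16 without O2 and O5, and Hnrnpll between Old and Adult was -0.065 without O2 and O5. Without each mouse, the Old to Adult log2 fold change ran from -0.087 to 0.19 for Hnrnpll, -0.22 to 0.022 for Srsf5 and -0.011 to 0.17 for Hnrnpa2b1. The PDX to Old values ran from -0.063 to 0.11 for Hnrnph3, -0.13 to 0.10 for Srsf5 and -0.12 to 0.059 for Hnrnpa2b1, and the PDX to Adult values from -0.091 to 0.0058 for Srsf7 and -0.040 to 0.034 for Hnrnpab. The cause of these changes was not tested. Of 1426 values recomputed, 1262 were labelled the same as the main result. These included counts of genes, for which the label meant only a count within a fixed ratio of the main one. Counts of 16 for Srsf12 did not allow a test, and 5 mice a group with O2 and O5 apart limit what can be detected.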
